A study of Mus musculus with 6 samples.

Results

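The unirradiated baseline transcriptome of the mouse submandibular gland is described here from the 2 control libraries of a series of 6. The members were chosen by their label as control, and all 24394 table entries with a usable gene symbol were read in them. The mice were wild-type C57BL/6, and the control glands received no radiation. The other 4 libraries, from glands irradiated with 5 Gy and taken 6 h or 24 h later, enter no comparison here. Total RNA of whole tissue was sequenced, so fewer cells of a type and less RNA per cell cannot be told apart. The labels give neither the age nor the sex of the mice. They also do not say that the libraries came from separate animals, so the difference between them may be technical. They name the tissue as salivary gland and the series design names the submandibular gland. The main submandibular products were high in both libraries, and the libraries stood apart in sublingual, parotid and adipocyte genes, many of which were far lower in replicate 1 than in replicate 2.

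The submandibular gland makes saliva in clusters of acinar cells, which release mucins and small secreted proteins together with a salt-rich fluid. Ducts carry this fluid to the mouth and take up sodium from it on the way. In rodents, a duct segment called the granular convoluted tubule stores kallikrein proteases and growth factors such as EGF in granules, more so in males. The sublingual gland, which makes mostly mucin, lies against the submandibular gland, and the parotid gland, which makes amylase, lies near it.

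Levels are in FPKM, which divides the fragments of a gene by its exon length and by library size, so that genes of different length can be compared. The values of the control libraries lay on steps of whole reads, and these steps put their sizes at 12340000 reads for replicate 1 and 11830000 reads for replicate 2. In a 2 kb gene, 1 read came to 0.0405 FPKM in replicate 1 and to 0.0423 FPKM in replicate 2. FPKM summed to 879170 in replicate 1 and 886233 in replicate 2. In all, 10858 genes were at 1 FPKM or more in both libraries, 3742 at 10 or more, 304 at 100 or more and 28 at 1000 or more. Another 7689 entries were listed at 0 in both. A listed 0 is not always an absent transcript, since Rpl26, a ribosomal protein gene, and Ndufs5, a subunit gene of respiratory complex I, which every cell uses, were listed at 0 in both libraries. Ratios are replicate 1 over replicate 2 on the scale log2(FPKM + 1), which understates differences of low genes.

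A few secreted proteins made up most of the signal. In the mean of both libraries, 5 genes held 50% of the FPKM sum, 26 genes held 75% and 1052 genes held 90%. Spt1, salivary protein 1, came first with 226660 FPKM in replicate 1 and with 227926 FPKM in replicate 2. It alone held 25.8% of the sum in replicate 1 and 25.7% in replicate 2. The next were Scgb1b27, a secretoglobin of the androgen-binding protein family (122566 and 95144 FPKM in replicates 1 and 2), and Prol1, a salivary mucin-type protein (47394 and 41258 FPKM). Scgb2b27, which belongs to the partner subfamily of Scgb1b27, was at 41420 and 37918 FPKM. Pip, the prolactin-induced protein of saliva, was at 28360 and 35812 FPKM. Car6, the secreted carbonic anhydrase, was at 25993 and 23891 FPKM, and Crisp3, a cysteine-rich secretory protein, at 24958 and 19358 FPKM. The 15 highest genes by mean level held 67.9% of the sum and were all secretory products of the lists used here. They also included Scgb2b26, the kallikreins Klk1b9, Klk1b22, Klk1b11 and Klk1b4, and 2310057J18Rik, at 12255 and 12319 FPKM. The last members of the 15, Bpifa2 and Dcpp3, were abundant in replicate 2 alone.

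**Figure D1:**
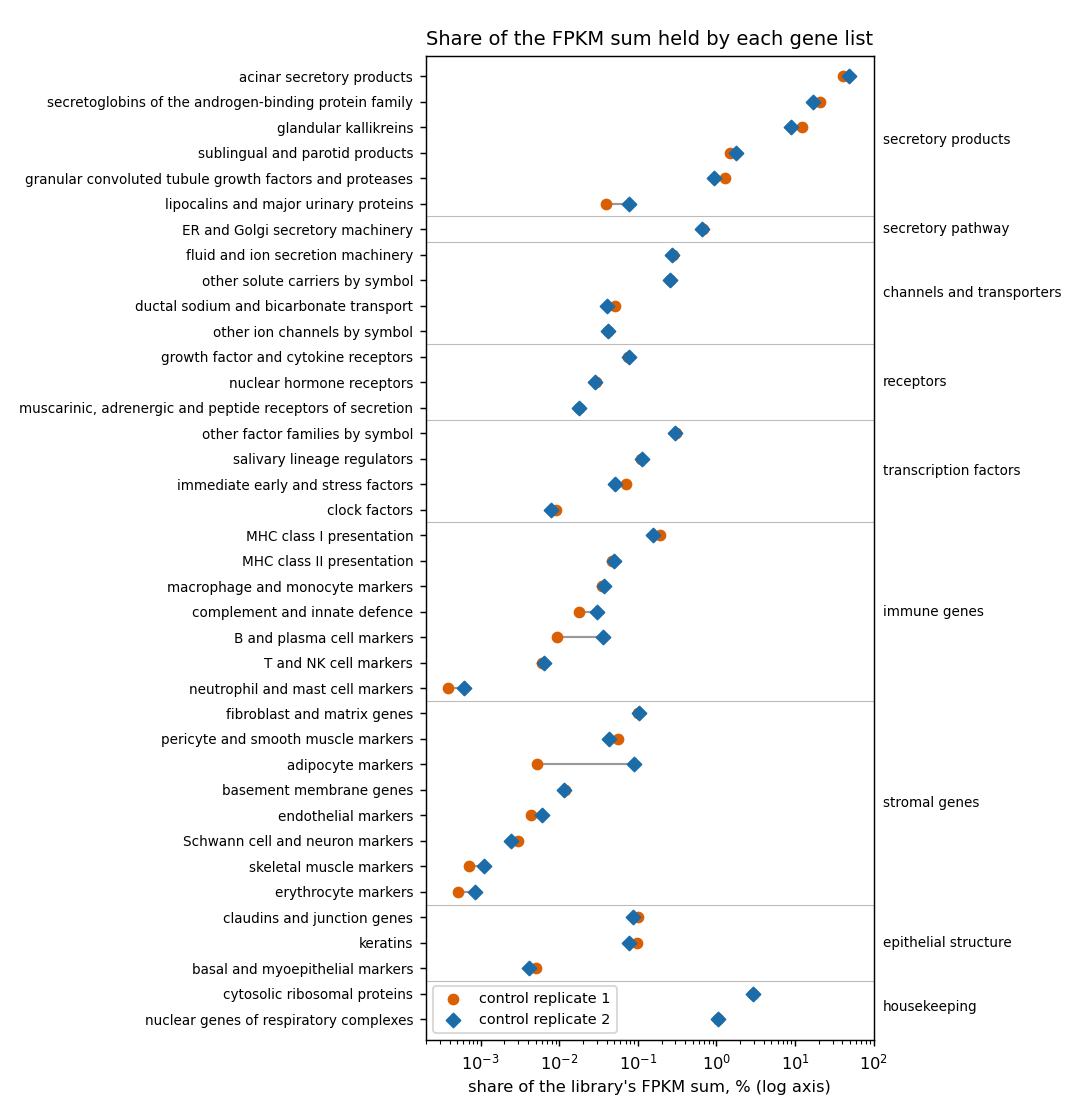
Share of the FPKM sum (%, log axis) held by each gene list in control replicate 1 (orange circles) and control replicate 2 (blue diamonds); a gene in several lists counts in the first. Acinar products hold 41.1 and 48.0%, while adipocyte markers are far apart, at 0.00521 and 0.0892%.

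Grouped by role, secretory products held 76.8% of the FPKM sum in replicate 1 and 76.5% in replicate 2, with 54 of 148 entries at 1 FPKM or more in both. Housekeeping genes, the cytosolic ribosomal proteins and nuclear genes of the respiratory complexes, held 3.94% in each library. The remaining classes were small. The secretory pathway, meaning the machinery of the endoplasmic reticulum and Golgi, held 0.665 and 0.658% in replicates 1 and 2. Channels and transporters held 0.631 and 0.610%, from 255 of 617 entries at 1 FPKM or more in both. Transcription factors held 0.495 and 0.464%, from 523 of 940 entries. Immune genes held 0.308 and 0.313%, from 74 of 124 entries. Stromal genes held 0.182 and 0.257%, epithelial structure genes 0.204 and 0.169%, and receptors 0.121 and 0.124%. The other 21918 entries, in no list, held 16.7 and 17.0%, and Eef1a1, a translation elongation factor, was the highest of them at 2360 and 2283 FPKM. The class totals hide shifts within the secretory products: acinar products held 41.1% in replicate 1 and 48.0% in replicate 2. This acinar difference lay largely in a few genes seen almost only in replicate 2, not in the list at large. In replicate 2 Bpifa2 held 2.42%, Dcpp3 1.94%, Dcpp2 1.67%, Smr3a 0.831% and Dcpp1 0.716%. In replicate 1 each of these held at most 0.000604%. Secretoglobins held 20.6 and 16.9%, kallikreins 12.2 and 8.82%, and the granular convoluted tubule growth factors and proteases 1.28 and 0.922%. Shares depend on counting transcripts per length. Counted as reads without length scaling, secretory products held 54.2% on average.

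Gene by gene, most genes differed little between the libraries. Of 11349 genes averaging at least 1 FPKM, 8771 (77.3%) agreed, which here means that the higher value lay less than 25% above the lower on the FPKM + 1 scale. Another 2287 were further apart but under 2-fold. Of the 11349, 10858 were at 1 FPKM or more in both libraries, and the rest reached the mean through 1 library only. A difference of 2-fold or more was found for 291 genes (2.56%), of which 65 (0.573%) were higher in replicate 1 and 226 (1.99%) higher in replicate 2. At 10-fold or more, 2 genes were higher in replicate 1 and 36 in replicate 2. Across these genes, which are not independent replicates, Pearson's r of log2(FPKM + 1) was 0.943 and Spearman's rho 0.951. The difference went beyond the 95% counting interval (exact binomial, counting error only) for 4214 of 11340 genes (37.2%). With 1 library on each side there is no test of any single gene.

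**Figure D2:**
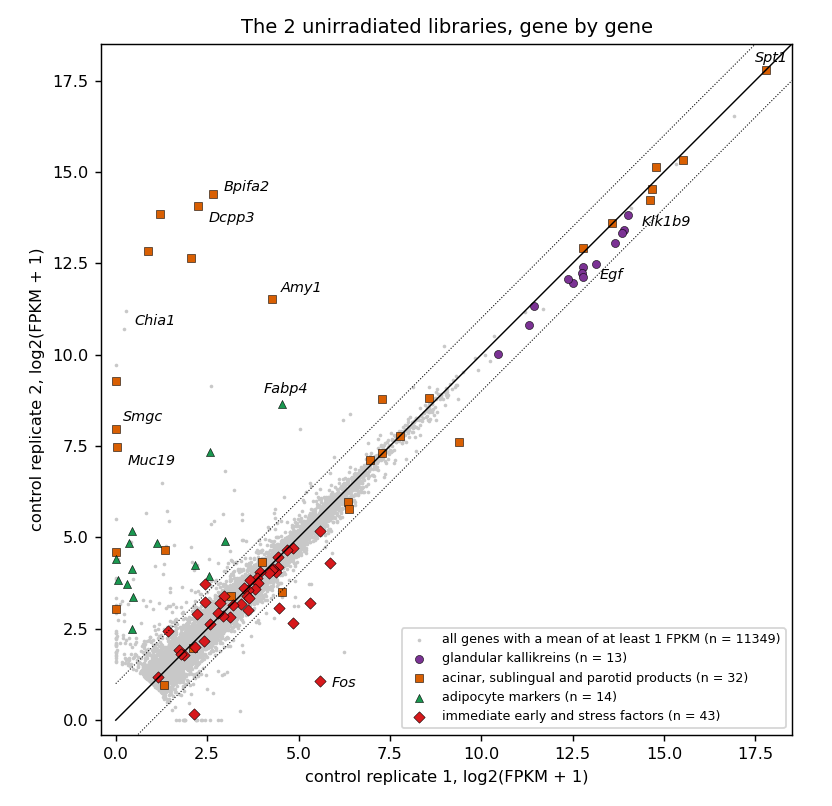
Each point is a gene averaging at least 1 FPKM, with control replicate 1 on the x axis and control replicate 2 on the y axis, as log2(FPKM + 1); the solid line marks equality and dotted lines 2-fold on that scale. Kallikreins lie along the line near its top, a group of acinar, sublingual and parotid products lies far above it at the left, and Fos lies below it.

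Agreement varied with level. The median absolute log2 ratio without a pseudocount was 0.65 for genes of 0.1 to 1 FPKM and 0.23 for genes of 1 to 10 FPKM. It was 0.16 from 10 to 100 FPKM and 0.12 from 100 to 1000 FPKM. At 1000 FPKM or more it was 0.42, over 36 genes, and 7 of these (19.4%) were at least 2-fold apart. Counting error alone would give 0.39 in the lowest range and 0.01 in the highest.

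**Figure D3:**
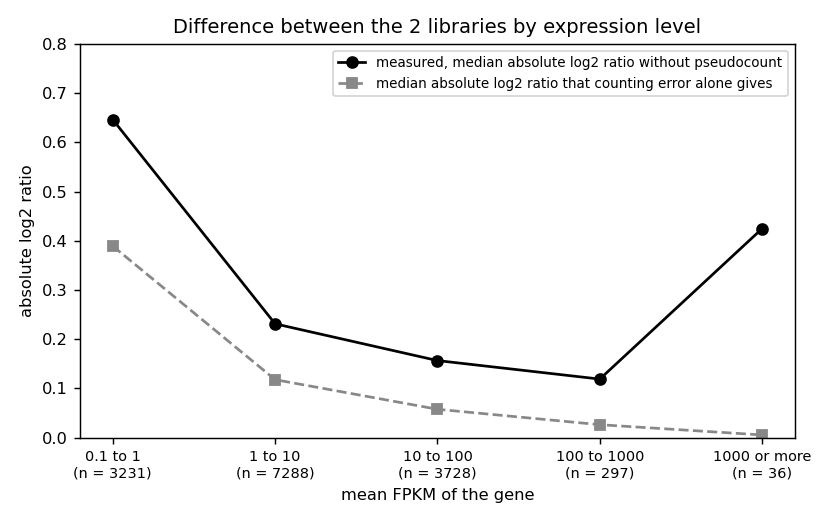
Median absolute log2 ratio between the control libraries by mean FPKM of the gene (black circles), with the value that counting error alone gives at the median number of reads of each range (grey squares). The measured value falls to 0.12 at 100 to 1000 FPKM and is 0.42 at 1000 FPKM or more.

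By class, the housekeeping genes agreed most closely: 152 of 159 averaging at least 1 FPKM agreed (95.6%), and 76 of 78 cytosolic ribosomal proteins did. The secretory pathway followed with 63 of 74 genes (85.1%), then transcription factors with 427 of 545 (78.3%), receptors with 79 of 107 (73.8%) and channels and transporters with 185 of 265 (69.8%). Epithelial structure genes agreed for 26 of 43 (60.5%), immune genes for 48 of 81 (59.3%), stromal genes for 49 of 98 and secretory products for 21 of 61 (34.4%). Genes at least 2-fold apart made up 17 of the 61 secretory products (27.9%), 17 of the 98 stromal genes (17.3%) and 8 of the 81 immune genes (9.88%), against 2.56% of all genes.

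**Figure D4:**
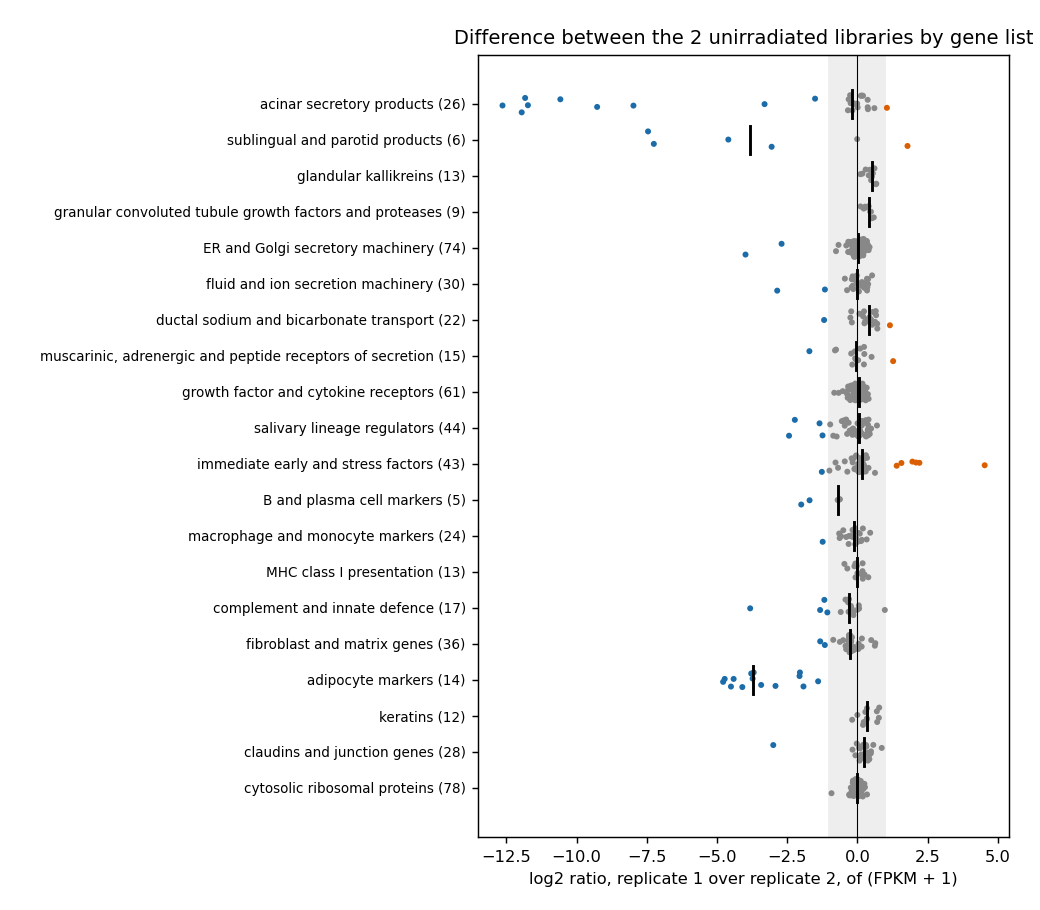
Log2 ratio of replicate 1 over replicate 2 for the genes of 20 lists averaging at least 1 FPKM, the number of genes in parentheses; each gene is drawn once, black bars are medians, the grey band is under 2-fold, orange is higher in replicate 1 and blue higher in replicate 2. All 14 adipocyte markers lie left of the band, and all 13 kallikreins lie within it, right of 0.

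The acinar products split into a shared set and a set seen almost only in replicate 2. Of 43 acinar products in the table, 22 were at 1 FPKM or more in both libraries. Of 26 averaging at least 1 FPKM, 3 of them only through replicate 2, 11 agreed, 9 were at least 2-fold higher in replicate 2 and 1 in replicate 1 (Clu, the chaperone clusterin, 22.6 and 10.4 FPKM in replicates 1 and 2). Over all genes tested, 77.3% agreed, 1.99% were at least 2-fold higher in replicate 2 and 0.573% in replicate 1. The shared set held Spt1, Prol1, Car6, Wfdc12, a whey acidic protein family member (7018 and 7797 FPKM), Lpo, the salivary peroxidase (218 and 217 FPKM), and Tcn2, a vitamin B12 carrier (154 and 159 FPKM). Bpifa2, which encodes parotid secretory protein, was at 5.31 FPKM in replicate 1 (63 reads) and 21486 FPKM in replicate 2 (244188 reads). Dcpp1, Dcpp2 and Dcpp3, which encode demilune cell and parotid proteins, were at 3.15, 1.33 and 3.72 FPKM in replicate 1 and at 6345, 14822 and 17205 FPKM in replicate 2. Smr3a, a submaxillary gland androgen-regulated protein, was at 0.856 FPKM in replicate 1 (7 reads) and 7361 FPKM in replicate 2 (57715 reads). Cst10, a cystatin, and Smgc, a mucin of neonatal submandibular and adult sublingual acini, were listed at 0 in replicate 1 and were at 615 and 251 FPKM in replicate 2 (5743 and 8820 reads). In replicate 2 these genes ranked among abundant secretory products, and in replicate 1 they were at the level of 0 to 63 reads. The Dcpp genes are close copies, so their separate values are uncertain, while their sum was 8.20 FPKM in replicate 1 and came to 38372 FPKM in replicate 2.

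Products of the sublingual and parotid glands followed the same division. Muc19, the main gel-forming mucin of the sublingual gland, was at 0.0178 FPKM in replicate 1 (2 reads) and 178 FPKM in replicate 2 (19117 reads). Its ratio of replicate 1 over replicate 2 had a 95% counting interval of 1.21e-05 to 0.000362. Amy1, salivary amylase, was at 18.4 FPKM in replicate 1 (413 reads) and 2945 FPKM in replicate 2 (63459 reads). The proline-rich protein genes Prpmp5 and Prb1 were listed at 0 in replicate 1 and were at 23.2 and 7.30 FPKM in replicate 2. Of 12 genes in this list, 6 averaged at least 1 FPKM, and 3 of these (Muc19, Prpmp5 and Prb1) reached it only through replicate 2. Among the 6, 4 were higher in replicate 2 by 2-fold or more, against 1.99% of all genes tested. A630073D07Rik went the other way, at 672 and 194 FPKM in replicates 1 and 2, and 2310057J18Rik agreed. Among genes in no list, chosen as the extremes of the ratio, BC048546 (0.207 and 2331 FPKM in replicates 1 and 2) and Chia1, an acidic chitinase (0.160 and 1672 FPKM, 3 and 30127 reads), were also seen almost only in replicate 2. BC037156, a lincRNA in the annotation, was listed at 0 in replicate 1 and at 836 FPKM in replicate 2. The 36 genes at least 10-fold higher in replicate 2 held 0.00943% of the FPKM sum in replicate 1 and 8.79% in replicate 2. How far tissue of neighbouring glands contributes to replicate 2 was not tested.

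The secretory pathway list was close between the libraries apart from a pair of genes. St3gal1, a sialyltransferase, was at 1.75 and 42.5 FPKM in replicates 1 and 2, and Galnt12, which starts O-glycan chains, at 1.46 and 15 FPKM. These were the only members of the secretory pathway list at least 2-fold apart, out of 74 averaging at least 1 FPKM, a share of 2.70% against 2.56% of all genes. Among the lineage regulators, the transcription factor genes Spdef (10.8 and 28.9 FPKM) and Creb3l1 (61.6 and 147 FPKM) were higher in replicate 2, and so was Creb3l4 (1.59 and 26.1 FPKM), a factor outside that list. SPDEF is known from goblet cell differentiation and the CREB3L factors from secretory capacity. Sox2 and Nkx2-3 were listed at 0 in replicate 1 and were at 3.68 and 4.40 FPKM in replicate 2.

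The glandular kallikreins, serine proteases stored in the granular convoluted tubule, were abundant in both libraries. Of 14 genes, 13 were above 1000 FPKM in each, spread over 279 kb of chromosome 7 (chr7:43950664-44229618, GRCm38), and Klk1b26 was under 0.2 FPKM in both. The 13 ranged from 1413 FPKM (Klk1b24) to 16435 FPKM (Klk1b9) in replicate 1 and from 1038 FPKM (Klk1b24) to 14526 FPKM (Klk1b9) in replicate 2. All 13 were higher in replicate 1, with a median log2 ratio of 0.51 and none at 2-fold, against a median of 0.02 over all genes tested. The log2 ratio ranged from 0.11 for Klk1b27 to 0.67 for Klk1b5. The copies share long stretches of sequence, and how shared reads were assigned is not given in the sources used here, so values of single members are uncertain. Their sum was 107338 FPKM in replicate 1 and came to 78150 FPKM in replicate 2.

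The growth factor and protease list of the same tubule differed in the same direction as the kallikreins. Egf, epidermal growth factor, was at 7322 FPKM in replicate 1 and at 5244 FPKM in replicate 2, a log2 ratio of 0.48. All 9 members of this list averaging at least 1 FPKM were higher in replicate 1, and none reached 2-fold. They included Nucb2, a calcium-binding protein gene (369 and 294 FPKM), and Cpe, a prohormone carboxypeptidase (72.4 and 54.6 FPKM). Ren1, which encodes renin, was listed at 0 in both. The 3 expressed secretoglobins, Scgb1b27, Scgb2b27 and Scgb2b26, were also higher in replicate 1, with log2 ratios of 0.37, 0.13 and 0.08. In the lipocalin and major urinary protein list, Lcn2, an iron-siderophore binding protein, was at 54.3 and 54.2 FPKM in replicates 1 and 2. Mup5 was at 279 and 553 FPKM, and Mup4 and Mup6 were higher in replicate 2 by 2-fold or more, again as members of a family of close copies.

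Sequences just before the transcription start are shown for the 3 highest genes, for a kallikrein and Egf as genes of the granular convoluted tubule, and for the 3 Dcpp genes that were present almost only in replicate 2. Each is the last 100 bases before the start in RefSeq on GRCm38.p6, 5′ to 3′ on the strand of the gene. Capitals mark TATA or TTTAAA where it lies 40 to 16 bases before the start. Both motifs read the same on either strand, and they were chosen after the sequences were seen. RefSeq lists 2 windows for Egf, of which the first is shown. In the order shown, the windows are chr15:103899313-103899412 (minus strand), chr7:34021381-34021480 (plus), chr5:88317212-88317311 (plus), chr7:43975961-43976060 (plus), chr3:129755323-129755422 (minus), chr17:23880776-23880875 (plus), chr17:23898622-23898721 (plus) and chr17:23917358-23917457 (plus).
Spt1: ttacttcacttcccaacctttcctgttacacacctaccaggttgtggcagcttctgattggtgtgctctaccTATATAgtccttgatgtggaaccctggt
Scgb1b27: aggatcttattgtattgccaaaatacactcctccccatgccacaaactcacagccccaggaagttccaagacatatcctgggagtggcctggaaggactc
Prol1: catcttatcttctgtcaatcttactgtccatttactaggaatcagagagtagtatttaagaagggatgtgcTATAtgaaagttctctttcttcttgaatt
Klk1b9: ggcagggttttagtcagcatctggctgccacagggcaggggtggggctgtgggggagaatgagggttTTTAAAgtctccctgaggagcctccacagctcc
Egf: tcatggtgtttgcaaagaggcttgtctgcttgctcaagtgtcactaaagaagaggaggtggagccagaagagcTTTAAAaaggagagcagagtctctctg
Dcpp1: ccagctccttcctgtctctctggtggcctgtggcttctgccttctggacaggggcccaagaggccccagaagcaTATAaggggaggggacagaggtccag
Dcpp2: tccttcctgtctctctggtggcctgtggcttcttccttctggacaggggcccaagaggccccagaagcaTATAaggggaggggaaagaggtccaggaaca
Dcpp3: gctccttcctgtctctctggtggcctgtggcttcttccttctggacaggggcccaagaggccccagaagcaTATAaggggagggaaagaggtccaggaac
Spt1 and Prol1 hold TATA 28 and 29 bases before the start (in Spt1 a pair of overlapping matches reads TATATA), and Klk1b9 and Egf hold TTTAAA 33 and 27 bases before it. The window of Scgb1b27 holds neither motif at this place. The Dcpp promoters are near-identical, with 93.3 to 96.4% identity over 250 bases in pairwise alignments. Between families identity was 47.7 to 50.7%, and among the 13 kallikrein promoters the median was 73.1%. Either motif at this place was found for 19 of 36 genes that reached 1000 FPKM in a library (52.8%), against 1531 of 17743 genes with a promoter sequence (8.63%), with TATA in 7.25% and TTTAAA in 1.44% of all. It was found for 26 of 56 secretory products at 1 FPKM or more (46.4%), for 7 of 13 kallikreins and for 7 of 58 cytosolic ribosomal proteins (12.1%). Genes under 1 FPKM in both libraries held it in 12.4% of cases and genes of 10 to 100 FPKM in 4.57%. The 36 genes include the 13 kallikreins and the 3 Dcpp genes, whose promoters are related copies, so they are not 36 independent sequences. Because the motifs were chosen after windows of such genes were seen, these shares do not test an excess. The counts are matches of letters, not tested sites.

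Fluid secretion starts with receptors that raise calcium in acinar cells. The muscarinic receptor gene Chrm3 was at 5.65 FPKM in replicate 1 and at 4.64 FPKM in replicate 2, and Chrm1 at 0.786 and 0.740 FPKM. The counting interval of the ratio included 1 for both, with 221 and 174 reads for Chrm3 and 61 and 55 reads for Chrm1. The ATP-gated channel gene P2rx4 was the highest of the 40 secretion receptors, at 86.9 and 92.7 FPKM, and P2rx7 was at 6.26 and 7.24 FPKM. Adra1a, an alpha-1 adrenergic receptor, was at 14.8 and 10.1 FPKM. Adrb1, the beta-1 adrenergic receptor that drives protein secretion, was at 14.2 FPKM in replicate 1 and at 5.30 FPKM in replicate 2. Its log2 ratio of 1.27 made it the only receptor of this list at least 2-fold higher in replicate 1. Adrb3, a beta-adrenergic receptor known from adipocytes, was listed at 0 in replicate 1 and at 2.27 FPKM in replicate 2.

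Several transport genes downstream of these receptors were present at high levels in both libraries. Over all 38 genes of the fluid secretion list, the median was 7.79 FPKM in replicate 1 and 6.73 FPKM in replicate 2. Slc12a2, the basolateral sodium-potassium-chloride cotransporter that loads acinar cells with chloride, was at 187 FPKM in replicate 1 and at 204 FPKM in replicate 2. Ano1, the apical calcium-gated chloride channel, was at 29.7 and 33.6 FPKM. The calcium-gated potassium channel genes Kcnn4 and Kcnma1 were at 84.8 and 97.4 FPKM and at 5.44 and 4.44 FPKM. Aqp5, the apical water channel, was at 114 and 155 FPKM, a log2 ratio of -0.45. The sodium pump beta subunit gene Atp1b1 (366 and 320 FPKM) and the calcium pump gene Atp2a3 (321 and 371 FPKM) were among the highest of the list. Of 30 fluid secretion genes averaging at least 1 FPKM, 20 agreed and 2 were at least 2-fold apart, while 77.3% of all genes agreed and 2.56% were at least 2-fold apart. Kcne1, a potassium channel subunit (0.257 and 8.09 FPKM), and Aqp1, the water channel of vessels (1.91 and 5.48 FPKM), were these 2, both higher in replicate 2. Kcne1 averaged at least 1 FPKM only through replicate 2.

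**Figure D5:**
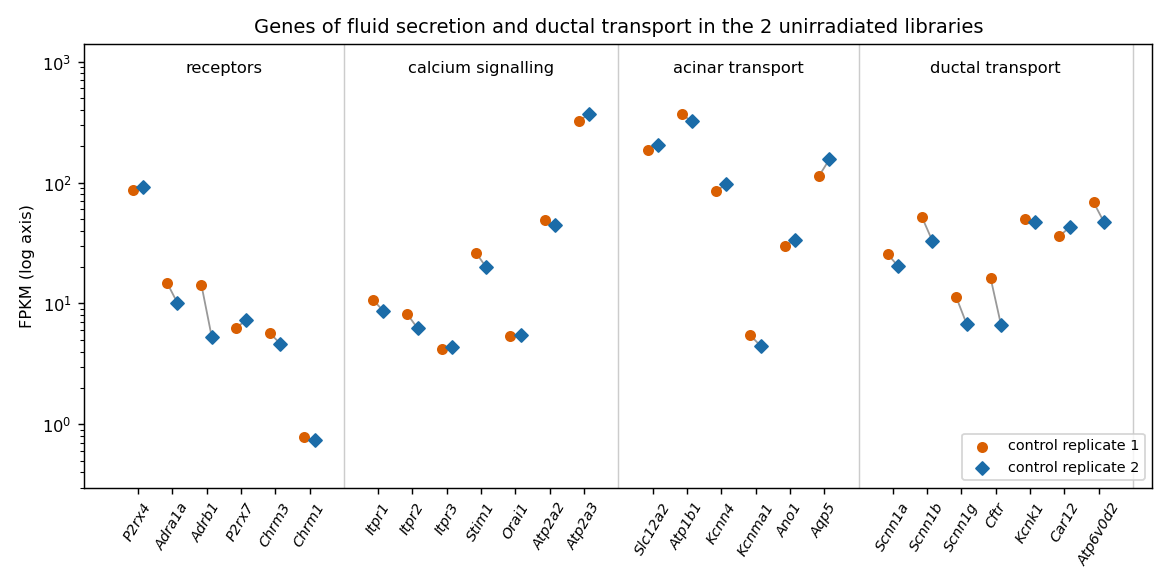
FPKM (log axis) of genes for receptors, calcium signalling, acinar transport and ductal transport in control replicate 1 (orange circles) and control replicate 2 (blue diamonds). Atp1b1 (366 and 320 FPKM) and Atp2a3 (321 and 371 FPKM) are the highest drawn, Chrm1 the lowest at 0.786 and 0.740 FPKM, and Adrb1 and Cftr show the widest gaps.

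Ductal transport genes tended to be higher in replicate 1. Of 22 averaging at least 1 FPKM, 18 were higher there, with a median log2 ratio of 0.43. Scnn1b, a subunit of the epithelial sodium channel, was at 51.6 FPKM in replicate 1 and at 33.0 FPKM in replicate 2. Cftr, the cAMP-gated chloride channel of ducts, was at 16.1 FPKM in replicate 1 (1256 reads) and 6.68 FPKM in replicate 2 (498 reads), the only member at least 2-fold higher in replicate 1. Slc26a6, an anion exchanger, was the only member at least 2-fold higher in replicate 2, at 1.49 and 4.65 FPKM. Across all genes tested, 52.8% were higher in replicate 1.

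Of 61 growth factor and cytokine receptors averaging at least 1 FPKM, 51 agreed and none was 2-fold apart, against 77.3% and 2.56% of all genes. The highest was Pigr, which carries polymeric IgA into saliva, at 119 FPKM in replicate 1 and at 190 FPKM in replicate 2. Kit, a receptor of intercalated duct cells, was at 4.49 and 4.05 FPKM. Of the nuclear receptors, Esrrg, an estrogen-related receptor, was at 41.7 and 41.1 FPKM.

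Transcription factors of the gland were led by epithelial and acinar regulators. Ehf, an ETS factor of epithelia, was at 121 FPKM in replicate 1 and at 117 FPKM in replicate 2. Bhlha15, the acinar maturation factor MIST1, was at 103 and 92.9 FPKM, and Tfcp2l1, a factor of ducts, at 107 and 82.2 FPKM. Elf5 was at 46.9 and 48.4 FPKM, Sox10 at 22.8 and 17.0 FPKM, Ascl3, a marker of ionocyte-like duct cells, at 20.5 and 15.1 FPKM, and Sox9 at 8.50 and 9.73 FPKM. Of 44 lineage regulators averaging at least 1 FPKM, 23 agreed and 4 were at least 2-fold higher in replicate 2 (Creb3l1, Spdef, Nkx2-3 and Sox2). Nkx2-3 and Sox2 reached that mean only through replicate 2, which fixed their direction. In this list 40 were at 1 FPKM or more in both libraries. Over all genes tested, 77.3% agreed and 1.99% were at least 2-fold higher in replicate 2. Of the clock factors, 9 of 12 agreed and none was 2-fold apart, against 77.3% and 2.56% of all genes.

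Several immediate early genes, which respond to stimuli within minutes, were higher in replicate 1. Fos was at 47.4 FPKM in replicate 1 (1225 reads) and 1.09 FPKM in replicate 2 (27 reads), a log2 ratio of 4.53. Its ratio without a pseudocount had a counting interval of 29.7 to 66.3. Junb was at 28.1 and 5.28 FPKM, Ier2 at 38.4 and 8.28 FPKM, Jun at 57.1 and 18.6 FPKM, Egr1 at 21.3 and 7.46 FPKM and Fosb at 3.41 and 0.134 FPKM. These 6 were the members at least 2-fold higher in replicate 1, out of 43 immediate early and stress factors averaging at least 1 FPKM. Fosb reached that mean only through replicate 1. Over all genes tested, 0.573% were at least 2-fold higher in replicate 1. Of the 43, 28 agreed, against 77.3% of all genes. Cebpa, a factor of adipocytes and other cells, went the other way at 4.45 and 12.1 FPKM. Genes outside this list, picked as extremes of the ratio, included Dusp1 (30.8 and 7.71 FPKM), Btg2 (39.9 and 12.3 FPKM), Cyr61 (28.2 and 7.76 FPKM), Ier3 (37.8 and 12.2 FPKM), Arc (28.8 and 9.32 FPKM) and Gadd45g (21.6 and 7.52 FPKM). Apobec3, a cytidine deaminase gene, was also among them at 19.1 and 5.95 FPKM.

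Immune genes held a small share of the FPKM sum and were led by antigen presentation. B2m, the light chain of MHC class I, was at 1197 FPKM in replicate 1 and at 913 FPKM in replicate 2, and H2-K1, a class I heavy chain, at 228 and 190 FPKM. Cd74, the class II invariant chain, was at 200 and 219 FPKM. The complement gene C1qa, a macrophage marker, was at 58.9 and 53.8 FPKM. T and NK cell markers were lower, with Ptprc, the pan-leukocyte gene, at 4.06 and 5.46 FPKM and Cd3e at 0.339 and 1.59 FPKM. Of 12 in that list averaging at least 1 FPKM, 5 were higher in replicate 1 and 7 in replicate 2. The only one at least 2-fold apart was Xcl1, a chemokine gene, which was higher in replicate 1 at 4.52 and 1.35 FPKM. Gzma, a granzyme gene, was at 5.26 and 3.56 FPKM. The B cell gene Cd79a was at 0.305 and 3.25 FPKM. Jchain, the joining chain of IgA and IgM made by plasma cells, was at 73.7 FPKM in replicate 1 and at 298 FPKM in replicate 2, a log2 ratio of -2.0. All 6 B and plasma cell markers averaging at least 1 FPKM were higher in replicate 2, 3 of them by 2-fold or more. Only 3 of the list were at 1 FPKM or more in both. The others of the 6 reached the mean only through replicate 2, which fixed their direction. Cd79a and Pou2af1 (0.695 and 3.53 FPKM), both at least 2-fold higher in replicate 2, were among these. Over all genes tested, 1.99% were at least 2-fold higher in replicate 2. The summed level of the B and plasma cell list was 82.4 FPKM in replicate 1 and came to 320 FPKM in replicate 2, most of it Jchain in each. The plasma cell markers Sdc1 (2.86 and 5.28 FPKM) and Mzb1 (2.95 and 5.13 FPKM) were higher in replicate 2 by under 2-fold. The list of immunoglobulin segments matched only Ighmbp2, a helicase gene that is no segment. Neutrophil and mast cell markers were almost silent: 1 of 16, Mcpt4, was at 1 FPKM or more in both.

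Stroma was present in both libraries, and adipocyte markers differed throughout. Over all 15 adipocyte markers, the median level was 0.372 FPKM in replicate 1 and came to 17.8 FPKM in replicate 2. Of these markers 14 averaged at least 1 FPKM, 8 of them only through replicate 2, and each of the 14 was at least 2-fold higher there. The share over all genes tested was 1.99%. Lep, which encodes leptin, averaged under 1 FPKM, at 0.0249 and 0.597 FPKM. Fabp4, a fatty acid carrier, was at 22.4 FPKM in replicate 1 and at 399 FPKM in replicate 2. Car3, a muscle and fat carbonic anhydrase, was at 4.93 and 162 FPKM, Adipoq, the hormone adiponectin, at 1.18 and 28.0 FPKM, and Plin1, which coats lipid droplets, at 0.0423 and 13.3 FPKM. Cidea was at 0.278 and 28.0 FPKM, and Ucp1, the uncoupling protein of brown fat, was listed at 0 in replicate 1 and at 20.2 FPKM in replicate 2. The summed level of the list was 45.8 FPKM in replicate 1 and came to 791 FPKM in replicate 2. Ucp1 was its only member listed at 0 in replicate 1, but Plin1, Cidea, Pck1 and Cidec rested on 1, 4, 4 and 5 reads there. Genes outside the list had the same direction. Cfd, the adipocyte protease adipsin, was at 6.99 and 112 FPKM. Scd1, a fatty acid desaturase, was at 32.2 and 249 FPKM, and Fasn, fatty acid synthase, at 5.10 and 40.5 FPKM. Scd1 and Fasn were chosen after their values were seen. In the respiratory list, 2 of 81 genes were at least 2-fold apart, against 2.56% of all genes. They were the heart, muscle and brown fat isoforms Cox7a1 (5.98 and 18.7 FPKM) and Cox8b (1.12 and 17.7 FPKM). The part of fat attached to the gland in these values was not tested.

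The other stromal lists had fewer genes at least 2-fold apart. Over all genes tested, 52.8% were higher in replicate 1, 77.3% agreed and 2.56% were at least 2-fold apart. Of 36 fibroblast and matrix genes averaging at least 1 FPKM, 29 were higher in replicate 2, 24 agreed and 2 were at least 2-fold higher in replicate 2, Dpt (3.91 and 9.98 FPKM) and Lox (0.296 and 2.25 FPKM). Lox averaged at least 1 FPKM only through replicate 2. Dcn, the proteoglycan decorin, led the list at 173 FPKM in replicate 1 and at 202 FPKM in replicate 2. Of 15 endothelial markers averaging at least 1 FPKM, 13 were higher in replicate 2, with Pecam1 at 4.77 and 6.82 FPKM. In that list 11 were at 1 FPKM or more in both, so some reached the mean through 1 library only. Vwf, von Willebrand factor, was the only endothelial marker at least 2-fold apart, at 0.642 and 3.06 FPKM, and reached the mean only through replicate 2. Of 8 pericyte and smooth muscle markers, 1 agreed, 6 were higher in replicate 1 and none was 2-fold apart, with a median log2 ratio of 0.36. Myh11, smooth muscle myosin, was at 47.9 and 32.6 FPKM, and Rgs5, a pericyte marker, at 2.73 and 4.77 FPKM. Schwann cell and neuron markers were low, the highest being Pmp22, a myelin protein gene, at 9.23 and 7.77 FPKM. Skeletal muscle markers were lower still, with Acta1 at 1.39 and 1.56 FPKM. The haemoglobin gene Hba-a1 was listed at 0 in both, while Alas2, the haem synthesis enzyme of red cells, was at 2.42 and 4.32 FPKM.

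Epithelial structure genes tended to be higher in replicate 1, 37 of 43 averaging at least 1 FPKM, against 52.8% of all genes tested. The keratins of simple epithelia led, with Krt18 at 403 FPKM in replicate 1 and at 345 FPKM in replicate 2, Krt7, a keratin of ducts, at 162 and 99.5 FPKM, and Krt8 at 145 and 115 FPKM. The basal keratin genes Krt14 and Krt5 were at 28.2 FPKM in each library and at 15.9 and 13.7 FPKM. Acta2, the smooth muscle actin of myoepithelial cells and vessels, was at 166 and 129 FPKM. Of 12 basal and myoepithelial markers, 11 were higher in replicate 1, with a median log2 ratio of 0.34 and none at 2-fold. This count overlaps that of the pericyte and smooth muscle list, since Acta2, Tagln, Cnn1 and Myh11, among others, are in both. Epcam was at 149 and 142 FPKM. Only Cldn22 among 28 claudin and junction genes was at least 2-fold apart, against 2.56% of all genes. It was listed at 0 in replicate 1 and was at 6.98 FPKM in replicate 2.

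The Y-linked genes Ddx3y (8.63 and 11.9 FPKM in replicates 1 and 2) and Eif2s3y (21.9 and 27.5 FPKM) were present in each, and Xist was at 0.00905 and 0.0189 FPKM (2 and 4 reads). The proliferation marker Mki67 was at 0.579 and 1.04 FPKM.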

How the data were processed

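RNA sequencing of mouse submandibular gland was deposited as a table of FPKM for 6 libraries. The deposited FPKM values were made by the authors with TopHat2 2.1.0 and Cufflinks 2.2.1 on mm10, per the submitters' processing notes. Only the 2 control libraries are described; the 6 h columns served solely to find what 1 read is worth. Of 24421 entries, 27 with a date number for a symbol were left out. Symbols were matched to GENCODE release M21 (GRCm38) for 98.2% of entries, 642 of them through a RefSeq synonym. In 16204 of 16214 genes above 0 in at least 2 of 4 columns, ratios of values were ratios of whole reads (relative tolerance 1e-14). Reads so recovered came to 99.1% of the library size in each control library. Mitochondrially encoded genes were not analysed here. A few single genes are not reported here.

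Genes were sorted into 39 lists in 9 classes, each gene into the first list that holds it for class shares. The members and lists were chosen with earlier results of these data known. Ratios used log2(FPKM + 1) for genes averaging at least 1 FPKM; at least 2-fold was taken as a difference and under 25% as agreement. Counting intervals are exact binomial (Clopper-Pearson) at 95% and cover counting error only. No test was made, since each side is 1 library. Named genes were the 15 highest, the 5 highest of each list, the 12 at each extreme of the ratio with a mean of at least 10 FPKM, list members at least 2-fold apart, and a fixed set of gland genes; others given for their list or role fall outside that rule. Not every gene that the rule picks is printed. Scripts ran in Python 3.11.15 with scipy 1.17.1, and read recovery was tested on simulated data.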

Additional observations from a re-analysis of the deposited data

How the results depend on the processing

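Values are means of the control libraries. Without Spt1, the share of the FPKM sum was 68.5% for secretory products, 0.165% for receptors, 0.836% for channels and transporters, 0.646% for transcription factors, 0.418% for immune genes and 0.295% for stromal genes. Weighted by annotated exon length, the shares in the same order were 52.5, 0.385, 1.58, 1.35, 0.315 and 0.532%. As shares of recovered reads, an alternative added after seeing the data, they were 54.2, 0.445, 1.58, 1.53, 0.371 and 0.473%. Leaving out short RNA models moved none of the 6 shares beyond the spread between replicates. With 2 replicates, leaving out either gives the value of the other; without replicate 1 and without replicate 2 they were 76.5 and 76.8, 0.124 and 0.121, 0.610 and 0.631, 0.464 and 0.495, 0.313 and 0.308, and 0.257 and 0.182%. The number of genes that hold 50% of the sum was 10 without Spt1 and 20 by recovered reads, and ranged from 5 to 6 with either replicate left out.

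The number of genes at least 2-fold apart was 466 with a pseudocount of 0.1, 107 with a pseudocount of 5, 92 at a mean of at least 10 FPKM and 99 at 4-fold. It was 367 at a mean of at least 0.1 FPKM or with no filter, 288 with median-of-ratios scaling and 238 without short RNA models (added after seeing the data). Genes at 10 FPKM or more in both numbered 3742, and at 0.1 FPKM or more 13758. Of 83 named genes at least 2-fold apart, 83, 55 and 81 stayed so with a pseudocount of 0.1, a pseudocount of 5 and median-of-ratios scaling, and none changed direction.

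Each side is a single library, so the spread within a gene is known from 2 values only. No paired analysis was possible because a single group is described and no test was made. Below about 1 FPKM, values rest on few reads: the median gene of 0.1 to 1 FPKM had 12.5 reads per library. Entries listed at 0 in both libraries include genes that every cell uses, so a 0 in both limits little by itself. Where a gene was listed at 0 in replicate 1 only, the counting interval bounds the ratio if the 0 is a true count. Its upper end was 0.000401 for Smgc (8820 reads in replicate 2) and 0.00904 for Ucp1 (393 reads in replicate 2). Whether such a 0 is a true count was not tested. Close copies in the Klk1b, Scgb, Mup and Dcpp families can trade reads.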
